A study of Mus musculus with 18 samples.

Results

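The mitochondrial ribosomal protein genes were followed in RNA sequencing of the caput epididymis, the head of the duct in which sperm mature, from C57BL/6J mice. They were taken as every gene entry whose symbol is Mrpl or Mrps followed by a number and at most 1 letter. The rule found 78 of the 53819 entries in the tables, 49 of the large subunit (Mrpl) and 29 of the small subunit (Mrps), and used no measured value. The 6 groups held 3 libraries each. Control, 6% EtOH and 10% EtOH (ethanol) mice made up a set after cessation and a set at 10 weeks, and the controls of each set were mice of the same strain labelled as such. The series title puts the cessation at 1 month. Neither ages, nor the route of the ethanol, nor the length of treatment before cessation are known from the sources used here. No label states that samples of a group came from separate animals, litters or days, so a p-value here measures the spread between samples, which may be technical.

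As background, the mitochondrial ribosome translates the few messenger RNAs of the mitochondrial genome, all of which encode subunits of the respiratory chain and ATP synthase. Its ribosomal RNAs come from that same genome, but every one of its proteins is encoded in the nucleus, made in the cytosol and imported, so each subunit is assembled from the products of both genomes. The large subunit forms the peptide bond and the small subunit reads the messenger. Mammalian mitochondrial ribosomes carry many proteins without a bacterial counterpart, among them Mrps22, Mrps23, Mrps27, Mrps33, Mrps34, Mrpl37, Mrpl40 and Mrpl46. Symbols do not follow structure in every case: Mrps18a and Mrps30 sit in the large subunit in mammalian structures, and Mrps36 is now placed in the 2-oxoglutarate dehydrogenase complex. They are counted by symbol here.

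Assigned reads per library ranged from 10.7M to 21.1M. The tissue label was checked against 10 markers of caput principal cells (such as Gpx5, Lcn8 and Ros1), all of which were tested. Their summed level was 34444 to 89562.7 CPM (counts scaled to library size with TMM factors) in the 9 libraries after cessation and 70523.7 to 121140 CPM in the 9 libraries of 10 weeks. The sum was lowest in control cessation replicate 3 (34444 CPM) and 6% EtOH cessation replicate 1 (35018.5 CPM). Those same libraries had the highest summed levels of 4 smooth muscle markers (1077 and 1084 CPM), 6 markers of ciliated cells of the efferent ducts (95.3 and 213.7 CPM) and 6 germ cell markers (256.6 and 225.9 CPM). Medians after cessation are given with and without them. The identifiers in the title and the file of 6% EtOH cessation replicate 1 differ, and it was kept in the group its title gives. The identifier of 10% EtOH replicate 3 at 10 weeks has another form than those of the other 10% EtOH libraries. Over all genes the common biological coefficient of variation was 25.4%; estimated group by group after cessation it was 27.7% to 35.5%, and at 10 weeks 11.7% to 23.1%.

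Of the 78 genes, 77 passed the filter on low counts: 48 of the large and all 29 of the small subunit. The exception was Mrpl53, with 0 to 2 reads in any library. In the GENCODE M21 annotation of GRCm38, Mrpl53 shares 88.0% of its exonic bases with Gm42688 on the same strand, so its count is uncertain. Each of the other 77 had at least 43 reads in every library, the lowest value being that of Mrps18b. Together the 78 genes took 0.209% to 0.282% of the assigned reads. Exonic bases were shared with another gene by 33 of the 78, in 28 cases with a gene on the opposite strand and in 8 on the same strand. The share was over 50% for Mrpl53, Mrps25 (with Nr2c2) and Mrps34 (with Mapk8ip3), and the strand setting of the counting was not given in the sources used here, so their counts are uncertain.

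Levels per length (CPM per kilobase of transcript, RPKM) differed widely within the complex. Mrpl37 was highest, at a mean of 340 RPKM over the 18 libraries. Mrpl52 (127 RPKM), Mrps6 (124 RPKM), Mrpl30 (90.1 RPKM), Mrps21 (78.0 RPKM) and Mrpl41 (76.9 RPKM) followed. Mrps25 (2.42 RPKM), Mrpl47 (2.505 RPKM), Mrpl19 (2.90 RPKM), Mrpl35 (3.45 RPKM) and Mrps5 (4.28 RPKM) were lowest. This ranking depends on the annotated transcript length (GENCODE M21). The genes named as lowest have 3364 to 6073 bases, and the genes named after Mrpl37 have 418 to 846. The median length was 1302 bases for the large and 1107 for the small subunit. The median was 17.8 RPKM for the large and 12.2 RPKM for the small subunit, and each subunit held genes among the lowest and the highest. Mrps6 shares 159 exonic bases on the same strand with Slc5a3, a myo-inositol transporter gene with a mean of 7660 reads per library. The count of Mrps6 is therefore uncertain too, here and in the comparisons below.

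**Figure D1:**
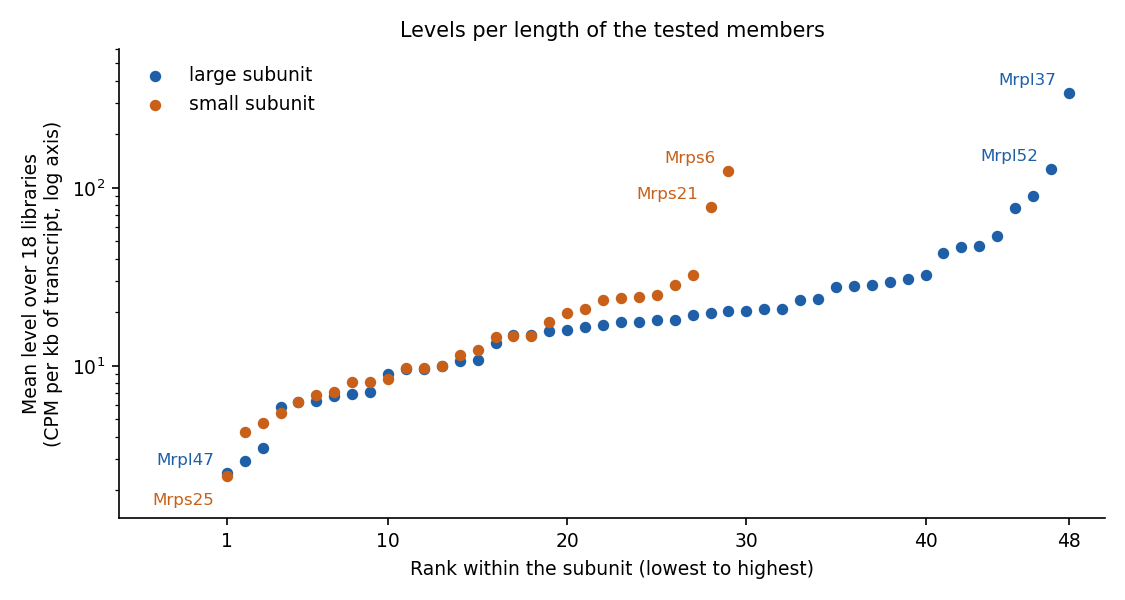
Mean level per length of the 77 tested mitochondrial ribosomal protein genes over 18 libraries, in CPM per kilobase of transcript on a log axis, ranked from lowest to highest within the large (48 genes) and the small subunit (29 genes). Mrpl37 stands at 340 RPKM, above the next gene, Mrpl52, at 127 RPKM.

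Mrpl37 was also the gene that varied most. Along the doses after cessation, it had 394, 613 and 229 CPM in control mice, 226, 602 and 366 CPM with 6% EtOH and 429, 453 and 337 CPM with 10% EtOH. Along the doses at 10 weeks, it had 507, 577 and 402 CPM in control mice, 512, 638 and 748 CPM with 6% EtOH and 628, 695 and 805 CPM with 10% EtOH. Its lowest 2 values lay in the 2 libraries with the least principal cell marker RNA, 6% EtOH cessation replicate 1 and control cessation replicate 3. In bulk tissue, fewer cells of a type and less RNA per cell cannot be told apart. At 10 weeks the 10% EtOH values lay above all control values, a log2 fold change of 0.52 ± 0.32 (SE) with an adjusted p of 0.491 (edgeR's quasi-likelihood test, Benjamini-Hochberg over 18618 genes). Because Mrpl37 alone took 11.7% to 28.7% of the reads of the complex, the small subunit's share of those reads ranged from 24.4% to 29.9%. Without Mrpl37 that share was 32.6% to 34.5% in every library.

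Most other genes of the complex were steadier. The median SD within groups was 0.19 on the log2 scale for the 77 genes, against 0.34 for all 18618 tested genes and 0.21 for tested genes with a mean level between the lowest and the highest of the 77. Mrpl3, a protein near the peptidyl transferase centre, had the smallest SD within groups (0.068), and Mrps9 the smallest over all 18 libraries (0.103). Mrps34 (0.40), Mrps18b (0.38), Mrps18c (0.38) and Mrpl41 (0.37) came next to Mrpl37 (0.45) at the variable end. Mrps18a, Mrps18b and Mrps18c are related copies of one bacterial protein, with means of 17.5, 7.44 and 15.5 CPM.

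The 300 bases around the annotated start (250 before and 50 after, RefSeq on GRCm38.p6) were at hand for 69 of the 78 genes. They were searched on both strands for exact matches to sites of 3 factors known to bind promoters of nuclear genes for mitochondrial proteins: CCGGAAG for ETS factors such as GABPA, AAGATGGC for YY1 and GCGCATGC for NRF1. No motif contains another, and the NRF1 letters overlap their own reverse complement. The ETS motif was in 26 of 69 (37.7%), against 17.1% of 12838 tested genes and 9.93% of all 27025 genes in the table. The YY1 motif was in 12 (17.4%), against 4.46% of tested genes, and the NRF1 motif in 8 (11.6%), against 5.13%. In 3 of those 8 (Mrpl9, Mrpl32 and Mrpl39; 4.35% of 69) it was matched on both strands at once by overlapping letters, against 1.95% of tested genes. At least 1 of the 3 motifs was in 24 of 43 large subunit genes (55.8%) and 14 of 26 small subunit genes (53.8%), against 24.3% of tested genes. A match describes the letters and is not evidence of binding.

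The 170 bases before the start are shown for some genes of small p in the comparisons that follow, with matches in capitals. The genes shown do not stand for all of small p. Mrpl46, Mrpl40, Mrpl12, Mrpl20, Mrpl50, Mrps6 and Mrps5, among others, have no match in their windows. Mrps23 and Mrps33 have a match only after the start. Mrps22 (chr9:98601680-98601849, minus strand) has an ETS match just before its start. Mrps18c (chr5:100798589-100798758, plus strand) and Mrps27 (chr13:99344616-99344785, plus strand) have it on the reverse strand (CTTCCGG). Mrpl58 (chr11:115403582-115403751, plus strand) has a full match, and the CC at its end begins a second match that crosses the start. Mrpl32 (chr13:14613038-14613207, minus strand) has NRF1 matches in 3 places, the first of them on both strands at once. Mrpl1 (chr5:96209945-96210114, plus strand) has none of the 3 motifs in its window.
Mrps22: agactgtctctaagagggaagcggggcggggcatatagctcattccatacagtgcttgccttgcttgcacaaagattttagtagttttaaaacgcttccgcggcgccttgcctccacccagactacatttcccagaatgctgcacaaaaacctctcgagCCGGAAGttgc
Mrps18c: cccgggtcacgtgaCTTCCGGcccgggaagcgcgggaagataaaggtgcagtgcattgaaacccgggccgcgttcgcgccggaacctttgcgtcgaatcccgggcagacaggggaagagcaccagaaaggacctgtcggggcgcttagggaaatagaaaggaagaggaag
Mrps27: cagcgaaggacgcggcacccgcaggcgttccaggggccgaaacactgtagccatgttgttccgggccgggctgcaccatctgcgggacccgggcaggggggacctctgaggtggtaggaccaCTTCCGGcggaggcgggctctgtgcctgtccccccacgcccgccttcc
Mrpl58: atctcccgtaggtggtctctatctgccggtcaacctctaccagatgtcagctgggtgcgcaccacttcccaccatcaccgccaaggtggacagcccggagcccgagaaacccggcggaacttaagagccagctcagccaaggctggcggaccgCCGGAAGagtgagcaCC
Mrpl32: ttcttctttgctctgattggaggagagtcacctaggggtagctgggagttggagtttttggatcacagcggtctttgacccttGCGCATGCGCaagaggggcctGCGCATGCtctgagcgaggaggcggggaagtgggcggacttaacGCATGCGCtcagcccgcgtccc
Mrpl1: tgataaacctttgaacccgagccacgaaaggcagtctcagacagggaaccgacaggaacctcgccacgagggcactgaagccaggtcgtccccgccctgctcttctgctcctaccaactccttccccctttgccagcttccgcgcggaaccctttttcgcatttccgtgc

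The first comparison asked how 6% EtOH caput differed from control caput at 10 weeks. Nearly the whole complex lay slightly above control, and no gene passed the test. The log2 fold change was above 0 for 69 of the 77 genes (89.6%), against 48.9% of all tested genes. The median was 0.15 for the large subunit (47 of 48 above 0) and 0.12 for the small subunit (22 of 29), beside -0.01 for all tested genes. With 1 library left out at a time, the large subunit median lay between 0.091 (without control replicate 3) and 0.18 (without control replicate 1), and the small subunit median between 0.079 (without 6% EtOH replicate 3) and 0.17 (without control replicate 2). All 3 treated libraries lay above all 3 controls for 32 genes, 20 of the large and 12 of the small subunit, where 9.67% of all tested genes did so. None of the 77 lay wholly below, where 9% of all tested genes did. No gene of the 18618 reached an adjusted p under 0.05 (edgeR; 0% called), none did with DESeq2, and 440 (2.36%) had an unadjusted p under 0.05. These included 6 of the complex, all higher with 6% EtOH, where 1.14% of all tested genes were higher and 1.22% lower at that unadjusted level.

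The genes of smallest p in this comparison came from both subunits. Mrps23, a small subunit protein, had 34.98, 38.5 and 40.8 CPM with 6% EtOH against 32.3, 30.5 and 26.4 CPM in control mice. All treated values lay above all control values, and the log2 fold change was 0.36 ± 0.13 (SE; adjusted p = 1, edgeR). Mrpl46, a large subunit protein, had 13.1, 13.4 and 16.02 CPM with 6% EtOH against 11.9, 11.04 and 9.43 CPM in control mice, a log2 fold change of 0.39 ± 0.16 (SE). Its gene and Mrps11 lie head to head and share 173 exonic bases on opposite strands, so part of their reads may not be told apart. Mrpl58, a peptidyl-tRNA hydrolase built into the large subunit that releases stalled peptides, had 29.3, 29.2 and 28.2 CPM with 6% EtOH against 23.2, 25.5 and 20.9 CPM in control mice, a log2 fold change of 0.32 ± 0.14 (SE). The others were Mrpl40 (0.43 ± 0.19), Mrps33 (0.32 ± 0.15) and Mrpl21 (0.34 ± 0.16, log2 fold changes with SE). Mrpl12, the stalk protein that also binds the mitochondrial RNA polymerase, stood at 0.41 ± 0.20, and Mrps6 and Mrps24 at 0.30 ± 0.15 and 0.31 ± 0.15. Mrps18c had the largest log2 fold change of the complex in this comparison, at 0.50 ± 0.28. Each of these genes separated the groups without overlap.

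**Figure D2:**
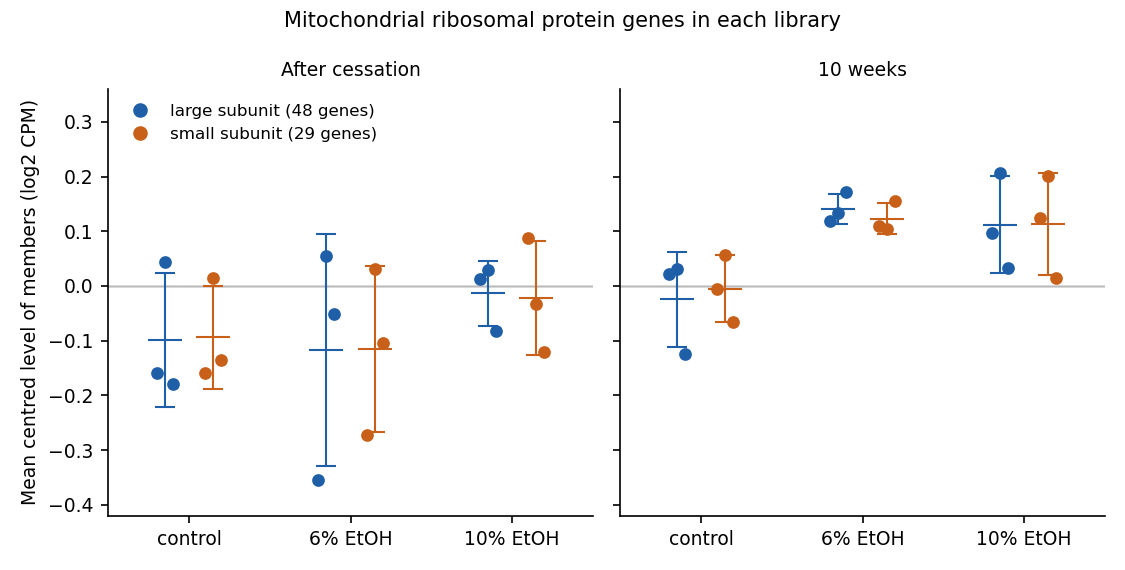
Mean over the tested genes of each subunit of log2 CPM centred on each gene's mean over 18 libraries, for each library (points), with the group mean and SD (n = 3), after cessation and at 10 weeks. The 3 libraries of 6% EtOH at 10 weeks lie between 0.10 and 0.17 for both subunits, above all controls of that time, and the 6% EtOH libraries after cessation spread from -0.35 to 0.05.

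In each library, the genes were also averaged on a centred log2 scale. With 6% EtOH at 10 weeks the mean over the complex was 0.12, 0.12 and 0.17, against 0.01, 0.04 and -0.10 in controls, so the groups did not overlap. With 10% EtOH it was 0.11, 0.20 and 0.03, against the same controls, and the groups overlapped. The large and small subunits went together from library to library: their difference lay between -0.08 and 0.06 in all 18 libraries. For control, 6% and 10% EtOH in that order, the group means of that difference were -0.0043, -0.0019 and 0.0087 after cessation and -0.020, 0.019 and -0.0014 at 10 weeks, with SDs of 0.01 to 0.07 (n = 3 each). No group stood apart from the others in the balance of the subunits beyond that spread.

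Levels of cell type markers also differed from control at 10 weeks. They did not follow the mean over the complex in every library. Among treated libraries of that time, 10% EtOH replicate 3 had the lowest mean (0.03) and the highest principal cell sum (121140 CPM). All 10 caput principal cell markers had log2 fold changes above 0 at both doses. Along the doses their summed level was 70523.7 to 78625.3 CPM in controls, 81250.5 to 98215.1 CPM with 6% EtOH and 95383.8 to 121140 CPM with 10% EtOH. Of the 6 ciliated cell markers, 5 had log2 fold changes below 0 at both doses, and their sum was 40.7 to 68.0 CPM in controls, 34.8 to 48.3 CPM with 6% EtOH and 26.9 to 47.3 CPM with 10% EtOH. All 8 macrophage markers had log2 fold changes above 0 at both doses, with sums of 183.7 to 212.1 CPM in controls, 233.5 to 255.2 CPM with 6% EtOH and 237.5 to 367.2 CPM with 10% EtOH, so neither dose overlapped the controls. All 4 smooth muscle markers were above 0 at both doses, with sums that overlapped those of controls. Of 5 adipocyte markers, 5 were above 0 with 6% EtOH (median 2.08) and 3 with 10% EtOH (median 0.33), with sums of 13.6 CPM or less in every library of that time. Of 10 immediate early genes, which are transcribed soon after a stimulus, 9 were below 0 at both doses, with Fos at -2.64 with 6% EtOH and -2.62 with 10% EtOH. With 6% and 10% EtOH, 3 and 5 of 5 fibroblast markers, 6 and 4 of 6 germ cell markers and 1 and 1 of 3 clear cell markers were above 0. None of these markers passed the test in the fit of 18 libraries. The part of these markers in the result was not tested.

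The second comparison set 10% EtOH against control at 10 weeks. Here a few genes of both subunits lay well above control, and again no gene passed the test. The log2 fold change was above 0 for 53 of 77 genes, against 48.8% of all tested genes. The median was 0.13 for the large subunit (36 of 48 above 0) and 0.04 for the small subunit (17 of 29), beside -0.01 for all tested genes. With 1 library left out at a time, the large subunit median lay between 0.056 (without control replicate 3) and 0.17 (without control replicate 2), and the small subunit median between 0.0074 (without 10% EtOH replicate 2) and 0.14 (without 10% EtOH replicate 3). The groups did not overlap for 24 genes, all higher with 10% EtOH (16 large, 8 small), where 15.2% of all tested genes were higher and 15.5% lower without overlap. No gene of the 18618 passed (edgeR; 0% called), although 2501 (13.4%) had an unadjusted p under 0.05, and DESeq2 called 74 genes (0.693%). At that unadjusted level 11 of the complex were higher and 1 was lower, where 6.84% of all tested genes were higher and 6.59% lower.

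Mrps22, a small subunit protein, had the smallest p of the complex. Along the doses at 10 weeks it had 9.704, 10.6 and 7.98 CPM in control mice, 11.2, 10.8 and 11.9 CPM with 6% EtOH and 13.6, 14.2 and 15.4 CPM with 10% EtOH. The libraries of each dose lay above all controls, and those of 10% EtOH above those of 6%. The log2 fold change with 10% EtOH was 0.61 ± 0.15 (SE; adjusted p = 0.299, edgeR), and DESeq2 gave an adjusted p of 0.0379, the one call it made in the complex. Without the low-count filter edgeR called 2.02% of all genes and, of the complex, Mrps18c alone (adjusted p = 0.00489).

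Mrpl1, the protein of the stalk beside the exit site for transfer RNA, had 26.8, 24.9 and 31.2 CPM with 10% EtOH against 19.2, 17.004 and 17.6 CPM in control mice. Its log2 fold change was 0.62 ± 0.19 (SE; adjusted p = 0.299, edgeR). Mrps18c had 16.2, 15.6 and 22.2 CPM with 10% EtOH against 9.55, 10.5 and 9.31 CPM in control mice, the largest log2 fold change of the complex at 0.88 ± 0.28 (SE; adjusted p = 0.299, edgeR). It shares 23.2% of its exonic bases with Gm43511 on the same strand. Its relatives Mrps18a and Mrps18b did not follow: 15.2, 23.2 and 13.8 CPM with 10% EtOH against 18.5, 18.4 and 15.4 CPM in control mice for Mrps18a, and 7.43, 8.18 and 6.84 CPM against 9.81, 7.83 and 7.92 CPM for Mrps18b, with overlapping groups in both. Mrps33 had 17.3, 19.2 and 20.8 CPM with 10% EtOH against 12.9, 14.8 and 14.2 CPM in control mice (0.45 ± 0.15, log2 with SE). Mrpl20, which binds ribosomal RNA early in assembly in bacteria, had 34.1, 41.7 and 47.5 CPM against 30.3, 29.95 and 28.3 CPM in control mice (0.48 ± 0.17, log2 with SE). For each of the 4 genes Mrpl1, Mrps18c, Mrps33 and Mrpl20 every 10% EtOH value exceeded every control value. The others of small p were Mrpl32 (0.45), Mrpl40 (0.44), Mrpl50 (0.41), Mrpl46 (0.38), Mrps23 (0.35) and Mrps6 (0.34). Mrps5, at the mouth of the messenger channel in bacteria, was the one lower gene at that unadjusted level, with 21.2, 15.4 and 14.3 CPM against 20.8, 20.9 and 23.5 CPM in control mice and overlapping groups.

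**Figure D3:**
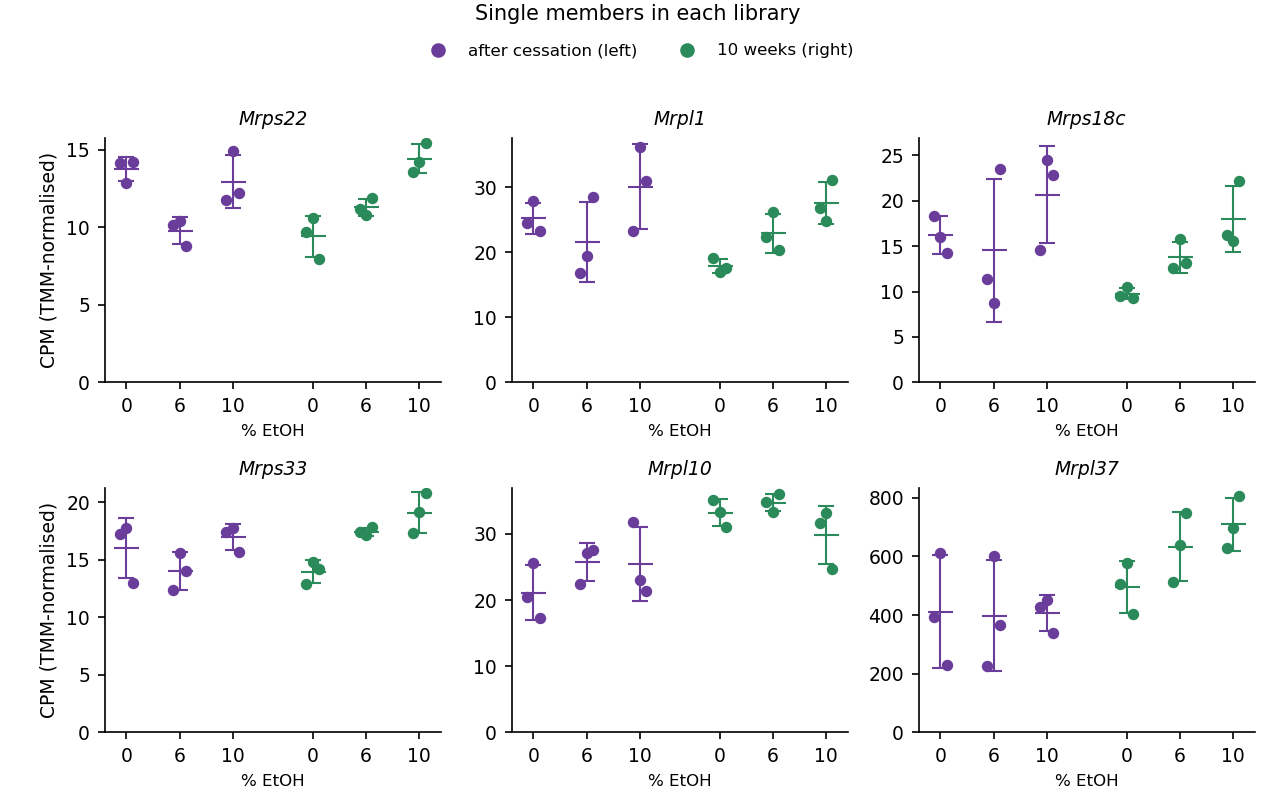
CPM of 6 genes in each library (points) with the group mean and SD (n = 3), by ethanol dose (0%, 6%, 10%), after cessation on the left and at 10 weeks on the right of each panel; each axis starts at 0. Mrps22, Mrpl1, Mrps18c and Mrps33 lie above control at 10 weeks with 10% EtOH without overlap, and Mrps22 lies below control after cessation with 6% EtOH.

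This comparison depended on which libraries shared the estimate of spread. Fitted on the 9 libraries of 10 weeks, where the common biological coefficient of variation was 16.6%, edgeR called 1059 of 17154 genes (6.17%; 3.92% higher), and 7 of the 77 rose: Mrps22, Mrpl1, Mrps18c, Mrps33, Mrpl20, Mrpl41 and Mrps6, with adjusted p from 0.0228 to 0.0486. The share of the complex called higher in that fit has to be read against 3.92% of all genes. Of lists described elsewhere here, it called higher 20 of 81 nuclear respiratory chain genes, 11 of 88 cytosolic ribosome genes and 6 of 10 principal cell markers. It also called higher 2 of 14 mitochondrially encoded genes, 1 of 27 assembly genes, 0 of 15 translation factors and 0 of 20 genes that charge transfer RNAs. The calls in the complex were lost when any control library was left out. Without control replicate 1, 2 or 3 that fit called 0, 14 and 0 genes, and none of the complex, with a smallest adjusted p of 0.110, 0.0583 and 0.0865. Without a 6% EtOH library it called 5, 3 and 3 of the complex, and without a 10% EtOH library 8, 5 and 6, in the order of the replicates. Over all genes those fits called 744, 352 and 508, then 1264, 1569 and 911. Mrpl41, Mrpl1 and Mrps18c were called in each of them. Mrps22, Mrps33, Mrpl20 and Mrps6 were each lost in some of them, and genes outside the 7, such as Mrpl12, Mrpl50 and Mrps5, were called in some. Fewer samples were in each of these fits.

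After cessation the complex did not stand apart from control with 6% EtOH. The log2 fold change was above 0 for 38 of 77 genes, and the median was -0.02 for the large and 0.02 for the small subunit, beside -0.01 for all tested genes. No gene of the 18618 passed (edgeR; 0% called; 301, or 1.62%, with an unadjusted p under 0.05), and DESeq2 called 1 (0.00537%), not of the complex. The groups did not overlap for 1 higher gene (Mrps35) and 2 lower genes, where 2% of all tested genes were higher and 2.01% lower without overlap. The lower genes were Mrps22 and Mrps27, both of the small subunit. Mrps22 had 10.2, 10.4 and 8.77 CPM with 6% EtOH against 14.1, 12.8 and 14.2 CPM in control mice, a log2 fold change of -0.49 ± 0.16 (SE; adjusted p = 1, edgeR). Mrps27 had 8.84, 9.26 and 10.6 CPM with 6% EtOH against 10.9, 15.8 and 12.2 CPM in control mice, a log2 fold change of -0.44 ± 0.18 (SE). Mrps27 shares 24.2% of its exonic bases with a transcript on the opposite strand. The sign of the medians turned on single libraries. For the large and small subunit they were 0.09 and 0.08 without 6% EtOH replicate 1, -0.11 and -0.098 without 6% EtOH replicate 2, and -0.03 and -0.0041 without control replicate 3. The small subunit median was highest, at 0.11, without control replicate 2. Markers of other cells moved in this comparison: 5 of 5 adipocyte markers (median log2 fold change 2.66) and 6 of 6 ciliated cell markers (0.95) were above 0, and 8 of 8 macrophage markers (-0.28) and 9 of 10 principal cell markers (-0.16) were below 0, none past the threshold. The adipocyte sums were low and uneven, at 1.53, 19.9 and 6.22 CPM with 6% EtOH against 1.31, 0.491 and 1.39 CPM in controls. The ciliated cell sums were 213.7, 90.3 and 47.1 CPM against 42.9, 28.2 and 95.3 CPM, and overlapped. The part of these markers in the result was not tested.

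With 10% EtOH after cessation, 50 of 77 genes lay above control, against 47.9% of all tested genes. The median was 0.08 for both subunits, beside -0.02 for all tested genes. Without control replicate 3 the medians were 0.06 and 0.07 for the large and small subunit. The direction of the small subunit turned on 1 library: its median was -0.011 without 10% EtOH replicate 1 and 0.16 without control replicate 2. The large subunit median lay between 0.036 (without 10% EtOH replicate 2) and 0.17 (without control replicate 2). Below 0 were 4 of 4 smooth muscle markers (median -0.60), 5 of 6 germ cell markers (-0.56), 6 of 6 ciliated cell markers (-0.47) and 7 of 8 macrophage markers (-0.41), none past the threshold. The part of these markers in the result was not tested. No gene of the 18618 passed (edgeR; 0% called; 1240, or 6.66%, with an unadjusted p under 0.05; 0 with DESeq2). Groups did not overlap for 4 higher genes (Mrpl22, Mrpl34, Mrps11 and Mrps24) and 1 lower gene (Mrps28), where 2.49% and 3.97% of all tested genes did so. Mrpl22, which lines the exit tunnel, had 12.6, 12.9 and 13.3 CPM with 10% EtOH against 9.498, 9.88 and 11.3 CPM in control mice (0.34 ± 0.15, log2 with SE; adjusted p = 0.744, edgeR). Mrps30 had 18.9, 20.4 and 15.5 CPM with 10% EtOH against 12.3, 13.4 and 16.3 CPM in control mice (0.38 ± 0.17, log2 with SE), with overlap. None of the 12 genes past the unadjusted level with 10% EtOH at 10 weeks was among the genes just named. Mrpl32, past that level at 10 weeks, was again among the 5 large subunit genes of smallest p. It had 17.5, 25.8 and 24.7 CPM with 10% EtOH against 20.005, 18.7 and 15.3 CPM in control mice, with overlap. Mrpl41 had the largest log2 fold change of the complex (0.46). Its values were 46.7, 86.3 and 78.01 CPM with 10% EtOH against 55.6, 57.6 and 40.5 CPM in control mice, with overlap. Mrps22 had 11.7, 14.9 and 12.2 CPM, Mrpl1 23.2, 36.1 and 30.9 CPM and Mrps18c 14.5, 24.5 and 22.9 CPM with 10% EtOH after cessation, each overlapping its controls.

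**Figure D4:**
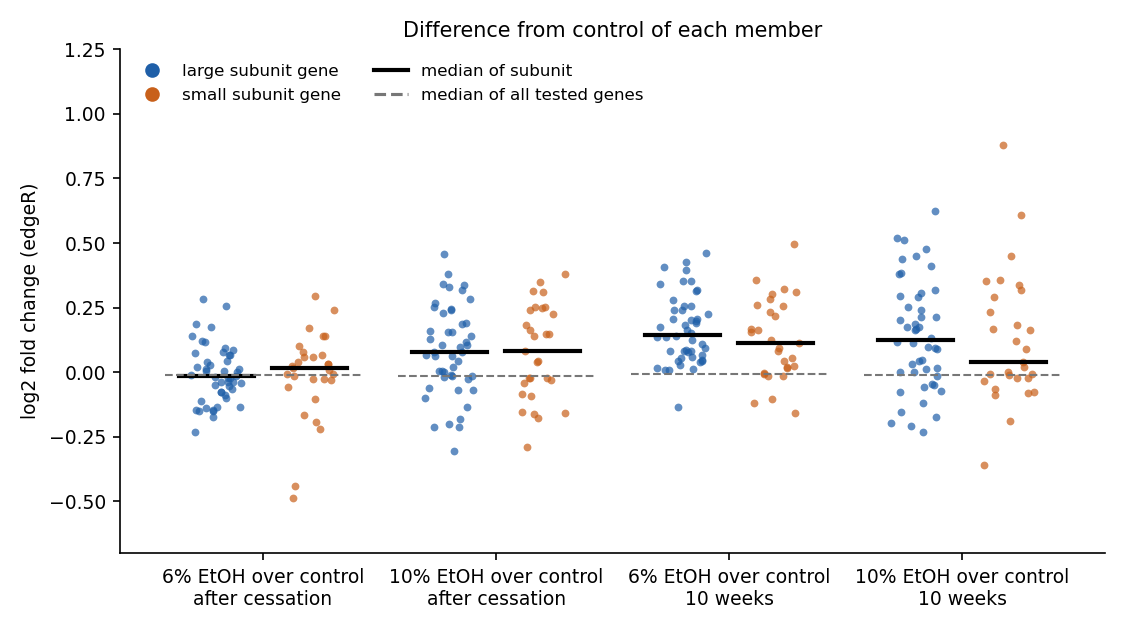
Log2 fold change (edgeR) of each of the 77 tested genes (points) over control, by subunit, for each dose after cessation and at 10 weeks; solid bars are the medians of a subunit and dashed lines the median of all tested genes. With 6% EtOH at 10 weeks 69 of 77 points lie above 0, and after cessation 38 of 77 do.

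The difference between the times was tested directly for each dose. For 6% EtOH, the effect after cessation minus the effect at 10 weeks was below 0 for 60 of 77 genes and above 0 for 17, against 50.2% above 0 over all tested genes. Its median was -0.21 for the large and -0.08 for the small subunit, against -0.11 and -0.053 without 6% EtOH cessation replicate 1, and -0.22 and -0.071 without control cessation replicate 3. It lay between -0.27 (without 6% EtOH cessation replicate 2) and -0.11 for the large subunit, and for the small subunit between -0.19 (without that same library) and -0.027 (without control cessation replicate 2). All 10 principal cell markers (median -0.56) and all 8 macrophage markers (-0.54) were below 0 in this difference, and all 6 ciliated cell markers (1.33) above 0. The part of these markers in the result was not tested. For the difference, no gene of the 18618 passed (edgeR; 0% called; 561, or 3.01%, with an unadjusted p under 0.05; 0 with DESeq2). Mrps22 had the smallest p of the complex, with a difference of -0.75 ± 0.22 (log2, SE; adjusted p = 0.9996, edgeR): its 6% EtOH libraries lay below control after cessation and above control at 10 weeks. Mrps27 (-0.73 ± 0.26), Mrps33 (-0.51 ± 0.21) and Mrpl1 (-0.59 ± 0.27) followed. The controls differed between the times as well. The mean of Mrps22 was 13.7 CPM after cessation and 9.42 CPM at 10 weeks in controls, against 9.77 and 11.3 CPM with 6% EtOH. That of Mrpl1 was 25.3 and 17.9 CPM in controls, against 21.6 and 22.9 CPM with 6% EtOH. For 10% EtOH, 32 of 77 genes had a difference above 0 (46.9% of all tested genes), and the medians were -0.06 and -0.02 for the large and small subunit. Without control cessation replicate 3 they were -0.13 and -0.0032, and without control cessation replicate 2 they were 0.013 and 0.079, so their sign turned on that library. All 10 principal cell (-0.76), 8 macrophage (-0.85) and 4 smooth muscle markers (-1.03) were below 0 in this difference, and their part in it was not tested. No gene passed (edgeR; 0% called; 1386, or 7.44%, with an unadjusted p under 0.05), and DESeq2 called 2 (0.0151%), neither of the complex. Mrps22 again had the smallest p (-0.70 ± 0.22), followed by Mrps5 (0.61 ± 0.24) and Mrps6 (-0.49 ± 0.21, log2 with SE). With 10% EtOH the mean of Mrps22 was 12.9 CPM after cessation and 14.4 CPM at 10 weeks, beside control means of 13.7 and 9.42 CPM.

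Control mice after cessation were set against control mice at 10 weeks, a comparison in which time, age and batch cannot be told apart. The test called 22 of 18618 genes (0.118%) and none of the complex. Of the 77 genes, 26 were above 0 (53.8% of all tested genes), with medians of -0.08 and -0.10 for the large and small subunit beside 0.05 for all tested genes. Without control cessation replicate 3 the medians were -0.04 and -0.14. With 1 library left out at a time, they lay between -0.13 (without 10-week control replicate 3) and -0.021 (without control cessation replicate 1) for the large subunit, and between -0.19 and -0.058 (without 10-week control replicate 3 and 2) for the small subunit. Markers of other cells and of a recent stimulus moved with this comparison. All 4 smooth muscle markers (median log2 fold change 1.72), all 8 macrophage markers (0.84) and all 6 germ cell markers (0.73) were above 0, none past the threshold. The macrophage sum was 224.0 to 521.4 CPM after cessation against 183.7 to 212.1 CPM at 10 weeks, and the smooth muscle sum 191.6 to 1077 CPM against 134.2 to 285.2 CPM. Of 10 immediate early genes 9 were above 0, and 3 rose: Atf3 (5.29, adjusted p = 0.00512), Dusp1 (3.82, adjusted p = 0.0186) and Junb (1.86, adjusted p = 0.0291, edgeR). Of the principal cell markers, 7 of 10 were below 0. The part of these markers in the result was not tested. Groups did not overlap for 8 higher and 15 lower genes, where 12% and 13.1% of all tested genes did so. Mrpl10, which anchors Mrpl12 in the stalk, had 20.4, 25.6 and 17.3 CPM after cessation against 35.2, 33.4 and 31.1 CPM at 10 weeks, a log2 fold change of -0.65 ± 0.17 (SE; adjusted p = 0.0945, edgeR). Mrps22 had 14.1, 12.8 and 14.2 CPM after cessation against 9.704, 10.6 and 7.98 CPM at 10 weeks (0.54 ± 0.15, log2 with SE; adjusted p = 0.108, edgeR). Both passed with DESeq2 (adjusted p = 0.0130 and 0.0185), in which 994 genes (6.32%) passed. Both also passed without control cessation replicate 2 (adjusted p = 0.00870 and 0.0359, edgeR), in which 2724 genes did. Without the low-count filter Mrpl10 and Mrps18c passed (adjusted p = 0.0137 and 0.0252), as did 4.79% of all genes, and with only the libraries compared in the fit none did (0% of all genes). Mrpl1 (0.49), Mrps18c (0.73) and Mrpl3 (0.25) were higher, and Mrpl22 (-0.44), Mrps34 (-0.68) and Mrpl39 (-0.32) lower, in log2 fold change, each without overlap and none past the threshold. The effects of ethanol at each time share these controls with this comparison.

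Other genes of mitochondrial translation were set beside the complex, as lists described by counts. The 5 proteins of the ribosome that carry other symbols (such as Dap3, a GTP-binding small subunit protein, and Chchd1) had 4 of 5 log2 fold changes above 0 with 6% EtOH at 10 weeks and a median of 0.10. With 10% EtOH at 10 weeks their median was 0.19, and Chchd1 stood at 0.56 ± 0.23 (SE; adjusted p = 0.322, edgeR). For genes that act on the ribosome, with 6% EtOH at 10 weeks, the median was 0.05 for 15 translation factors (11 above 0), 0.08 for 27 assembly genes (20 above 0) and -0.06 for 20 genes that charge transfer RNAs (7 above 0). Whether these lists differ from the complex was not tested. Assembly genes include Fastkd2, an RNA-binding protein of the large subunit's ribosomal RNA (0.75 ± 0.30 with 10% EtOH, log2 with SE; adjusted p = 0.310, edgeR), and Dhx30, a helicase of assembly (-0.30 ± 0.12). None of these genes passed in the fit of 18 libraries.

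Nuclear genes of the respiratory chain and cytosolic ribosome genes also lay slightly above control for the most part with 6% EtOH at 10 weeks. The median was 0.16 for 83 respiratory chain genes, of which 76 were above 0 and 47 separated the groups upward. It was 0.12 for 89 cytosolic ribosome genes, of which 79 were above 0 and 43 separated the groups upward, where 9.67% of all tested genes did. With 10% EtOH at 10 weeks the medians were 0.11 and 0.05. After cessation they were -0.02 and -0.04 with 6% EtOH and 0.0034 and 0.01 with 10% EtOH. Ndufb1, an accessory subunit of complex I, had the smallest p of the respiratory chain list at 10 weeks (0.46 ± 0.15 with 6% EtOH and 0.68 ± 0.15 with 10% EtOH, log2 with SE; adjusted p = 1 and 0.299, edgeR). Cytosolic ribosome genes have many near-identical pseudogenes, so their counts are uncertain.

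The mitochondrial genome encodes the transcripts that this ribosome translates and its ribosomal RNAs. The 14 tested genes of the mitochondrial genome had a median of 1.06 with 10% EtOH at 10 weeks, and 13 of 14 separated the groups upward, where 15.2% of all tested genes did. Their summed level was 17408.9, 16036.5 and 31150.4 CPM with 10% EtOH, against 9651.5, 9052.5 and 13162.6 CPM in controls. Replicate 3 of 10% EtOH was the highest. With 6% EtOH at 10 weeks the median was 0.23, and after cessation it was -0.18 with 6% EtOH and 0.54 with 10% EtOH. The summed level after cessation was 11776.9, 53416.5 and 47052.5 CPM with 10% EtOH and 16561.4, 10659.1 and 36884.1 CPM with 6% EtOH. Controls of that time had 32566, 23368.1 and 20594.3 CPM, and both doses overlapped them. Between controls, after cessation against 10 weeks, the median was larger, at 1.35, and all 14 separated the groups upward, where 12% of all tested genes did. Copies of mitochondrial sequence in the nuclear genome make these counts uncertain too.

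**Figure D5:**
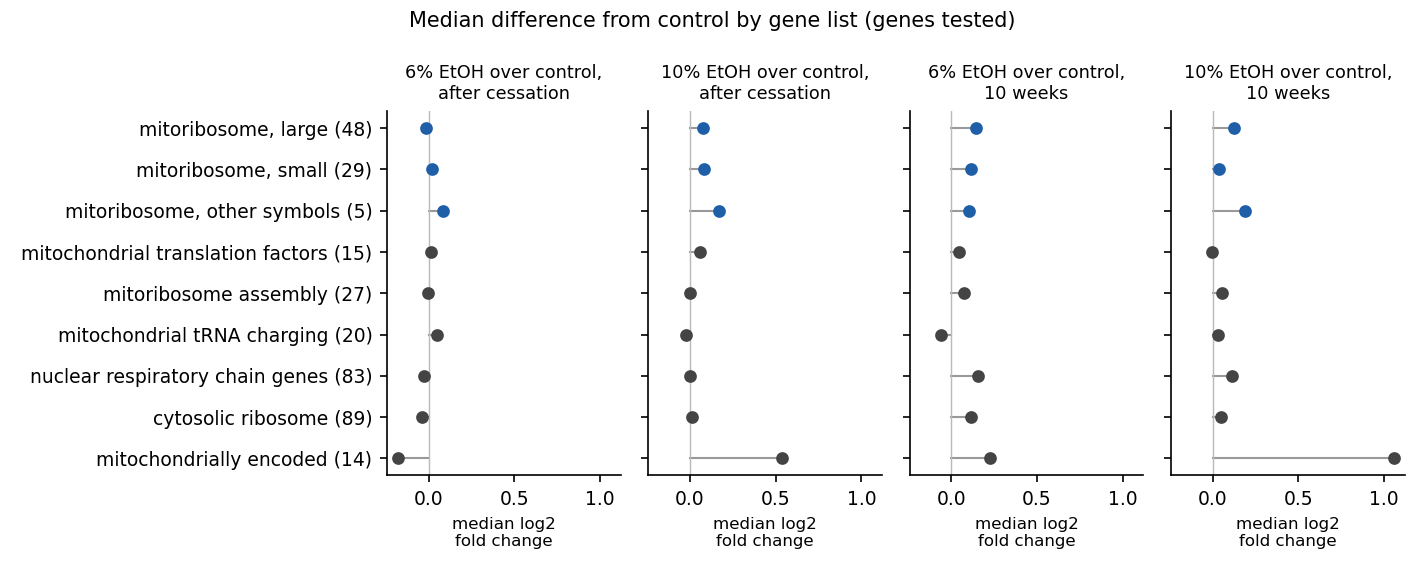
Median log2 fold change (edgeR) over control of the large and small subunit, of ribosome proteins with other symbols and of 6 further gene lists, for each dose after cessation and at 10 weeks; the number of genes tested is in parentheses. The mitochondrially encoded genes reach 1.06 with 10% EtOH at 10 weeks, where the large subunit stands at 0.13 and the small at 0.04.

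Transcript length and GC content were also compared with the fold changes, as a description across genes that share libraries and are not independent. Across the 77 genes, Pearson's r with GC content was -0.31 with 10% EtOH at 10 weeks (-0.33 over 18370 tested genes) and -0.09 with 6% EtOH at 10 weeks (-0.07). After cessation it was -0.31 with 10% EtOH (-0.24) and 0.12 with 6% EtOH (0.10). With trends of length and GC content removed, the gap between the subunit medians with 10% EtOH at 10 weeks was 0.04, against 0.09 without that step.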

How the data were processed

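RNA was measured in 18 caput libraries (6 groups of 3, grouped by title). The deposited values are whole-number counts per gene. The authors made them, per the submitters' processing notes, with the tools Trimmomatic, STAR and featureCounts on GRCm39 (mm39), with versions, annotation and strand setting not given in the sources used here. Replicate pairs differed beyond sampling noise (chi-square per degree of freedom at least 5.79).

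From these counts, genes were kept with filterByExpr (minimum count 10, minimum total 15) and scaled by TMM, and every gene was tested in 7 comparisons with edgeR 4.0.16's robust quasi-likelihood test (R 4.3.3) over all 18 libraries with 1 term per group, two-sided, called at a Benjamini-Hochberg adjusted p under 0.05 over all 18618 genes. The script recovered large changes in simulated data with known answers. Its check set no requirement for changes as small as those of the complex. Log2 CPM used a prior count of 2. Lengths, GC content and overlaps came from GENCODE M21 (GRCm38), matched by symbol, and no gene coordinates of the files' build were at hand. Alternatives were RLE size factors, no filter, DESeq2 1.42.0, fewer libraries in the fit, removal of length and GC trends, and leaving out each library.

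The members and lists were chosen with earlier results of these data known. Named genes were those past the threshold, the 5 of smallest p per subunit and comparison, the highest, lowest, most and least variable, Mrps18a to Mrps18c, and in other lists the genes of smallest p or largest difference. Genes named for lack of overlap, for a call under an alternative or in the ranking per length were chosen after their values were seen. The promoter motifs were likewise chosen by hand, and that of NRF1 was shortened from 10 to 8 letters after a first search. CPM values per library that would round to a final 0 are printed with more digits.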

Additional observations from a re-analysis of the deposited data

How the results depend on the processing

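With edgeR, TMM scaling and the low-count filter, no call in the complex was made over all 18 libraries. None of the 70 log2 fold changes of smallest p (5 per subunit and comparison) turned its sign under any alternative run, and other named fold changes were not followed there. Without a low-count filter the calls over all genes were 44 (6% EtOH, 10 weeks), 736 (10% EtOH, 10 weeks), 51 (6% EtOH, cessation), 407 (10% EtOH, cessation), 88 and 385 (difference between times, 6% and 10% EtOH) and 1740 (controls, cessation against 10 weeks), with 1 of the complex called for 10% EtOH at 10 weeks (Mrps18c) and 2 for the controls (Mrpl10 and Mrps18c). DESeq2 called 74, 1, 2 and 994 genes for 10% EtOH at 10 weeks, 6% EtOH after cessation, the 10% EtOH difference and the controls, with 1 and 2 of the complex in the first and last. With fewer libraries in the fit there were 1059 calls (7 of the complex) for 10% EtOH at 10 weeks and 0 for the controls. That fit, left-out libraries added after seeing the data, gave 0 to 1569 calls and 0 to 8 of the complex, and a small subunit median of 0.13 without 10% EtOH replicate 3. It gave 14 calls without control replicate 2, 744, 352 and 508 without a 6% EtOH library, and 1264, 1569 and 911 without a 10% EtOH library, with 5, 3 and 3, then 8, 5 and 6 of the complex. With length and GC trends removed the controls gave 43 calls, medians of -0.22 and -0.28 for the large and small subunit and a gap between them of 0.059, while the median of all genes in that comparison was -0.087 (a shift of -0.13), and the gap with 10% EtOH at 10 weeks was 0.043. The cause of these shifts was not tested.

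Leaving out 1 library in turn over all 18, calls ranged from 0 to 191 for 10% EtOH after cessation and from 0 to 2724 for the controls (0 to 2 of the complex); both highest values were without control cessation replicate 2. The small subunit median ranged from 0.079 to 0.17 (6% EtOH, 10 weeks), 0.0074 to 0.14 (10% EtOH, 10 weeks), -0.098 to 0.11 and -0.011 to 0.16 (6% and 10% EtOH, cessation), -0.19 to -0.027 and -0.082 to 0.079 (differences between times, 6% and 10% EtOH) and -0.19 to -0.058 (controls). The large subunit median ranged from 0.091 to 0.18 and 0.056 to 0.17 (6% and 10% EtOH, 10 weeks), -0.11 to 0.090 and 0.036 to 0.17 (6% and 10% EtOH, cessation), -0.27 to -0.11 and -0.13 to 0.013 (differences, 6% and 10% EtOH) and -0.13 to -0.021 (controls). The gap of the subunit medians, large minus small, ranged from 0.0026 to 0.080 (6% EtOH, 10 weeks), 0.0085 to 0.10 (10% EtOH, 10 weeks), -0.081 to 0.081 (10% EtOH, cessation), -0.15 to -0.058 and -0.12 to -0.011 (differences, 6% and 10% EtOH) and -0.024 to 0.11 (controls). Counting Mrps18a and Mrps30 as large and leaving out Mrps36, also added after seeing the data, moved each gap by less than its SD. No paired analysis was possible because replicates were numbered in accession order and no label pairs samples across groups. With 3 libraries a group, SEs of 0.12 to 0.32 on the log2 scale for the genes named with one limit what could be seen: the shift of the whole complex is smaller than most of them.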
